A study of Mus musculus with 12 samples.

Results

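The natriuretic peptide system of the mouse heart was described here by 10 genes: the ligand genes Nppa, Nppb and Nppc, the processing and granule enzyme genes Corin, Furin and Pam, the degrading enzyme gene Mme and the receptor genes Npr1, Npr2 and Npr3. The genes were chosen by their known roles and found by symbol in the table of read counts. All 10 were among the 53700 genes of the table, and 9 were among the 17847 genes with enough reads to be tested. Nppc was not.

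RNA-Seq was done on hearts labelled as whole from 6 ac-WT mice (CYB5R3wt/wt, Myh6-CreERT2) and 6 ac-CYB5R3-KO mice (CYB5R3fl/fl, Myh6-CreERT2). All were male mice given tamoxifen at an age of 10 to 13 weeks, with hearts taken 5 days after tamoxifen. The Myh6 promoter drives the recombinase in cardiomyocytes, so the gene was left intact in the other cells of the heart. The recombinase and tamoxifen were shared by both groups, and mice without either were not part of the comparison. The comparison asks which genes differ between hearts with and without CYB5R3, the flavoprotein reductase cytochrome b5 reductase 3, in their cardiomyocytes.

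Natriuretic peptides are hormones that the heart releases when its wall is stretched. Atrial cardiomyocytes store atrial natriuretic peptide (ANP, from Nppa) in granules, while B-type natriuretic peptide (BNP, from Nppb) is made by atrial and ventricular cardiomyocytes, and both genes are textbook markers of ventricular hypertrophy and heart failure. The prohormones are cut by the proteases corin and furin. The mature peptides raise cyclic GMP through guanylyl cyclase receptors, and they are removed by the clearance receptor NPR3 and by the peptidase neprilysin.

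Total counts lay between 43393183 and 53754284 per library. ac-WT mice 2 and 3 stood apart from the other 10 libraries. Their TMM scaling factors were 0.57 and 0.723 against 0.988 to 1.22, and mitochondrially encoded genes took 35.3% and 34.8% of their counts against 24.0% to 30.1%. Differences at an unadjusted p under 0.01 are therefore given with and without them. The targeted gene Cyb5r3 was measured at 126 ± 38.4 normalized CPM (read counts scaled to library size) in ac-WT hearts and 53.7 ± 9.07 in ac-CYB5R3-KO hearts (SD, n = 6 each), and the groups did not overlap. Its reads were summed over all exons, so they include any from outside the deleted part and from cells without the recombinase. It fell by 1.22 ± 0.19 (SE) on the log2 scale, with an edgeR adjusted p of 0.045, and by 1.41 ± 0.153 (SE) without ac-WT mice 2 and 3.

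The peptide genes Nppa and Nppb did not differ between the groups beyond the spread between mice. Among the members, the clearance receptor gene Npr3 (1.49-fold) and the granule enzyme gene Pam (1.69-fold) were measured higher in ac-CYB5R3-KO hearts, with no overlap between the groups, and the neprilysin gene Mme was measured lower (0.484-fold). None of the 9 tested members passed an adjusted p under 0.05 in the quasi-likelihood test of edgeR, a threshold that 0.101% of all tested genes (18 genes) passed. Leaving out 1 library at a time gave between 2 and 38 such genes. At an unadjusted p under 0.05, 3 of the 9 members passed, against 14.6% of all tested genes. The same 3, Pam, Mme and Npr3, passed an unadjusted p under 0.01, against 4.59% of all tested genes. By direction, 2 were higher, against 1.33% of all tested genes, and 1 was lower, against 3.27%. The groups did not overlap for 2 of the 9 members, against 1.55% of all tested genes. With limma-voom none passed an adjusted p under 0.05, and with DESeq2, which called 451 genes in all, these 3 passed. In RNA from bulk tissue, a change in the number of cells of a type and a change in RNA per cell cannot be told apart.

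**Figure D1:**
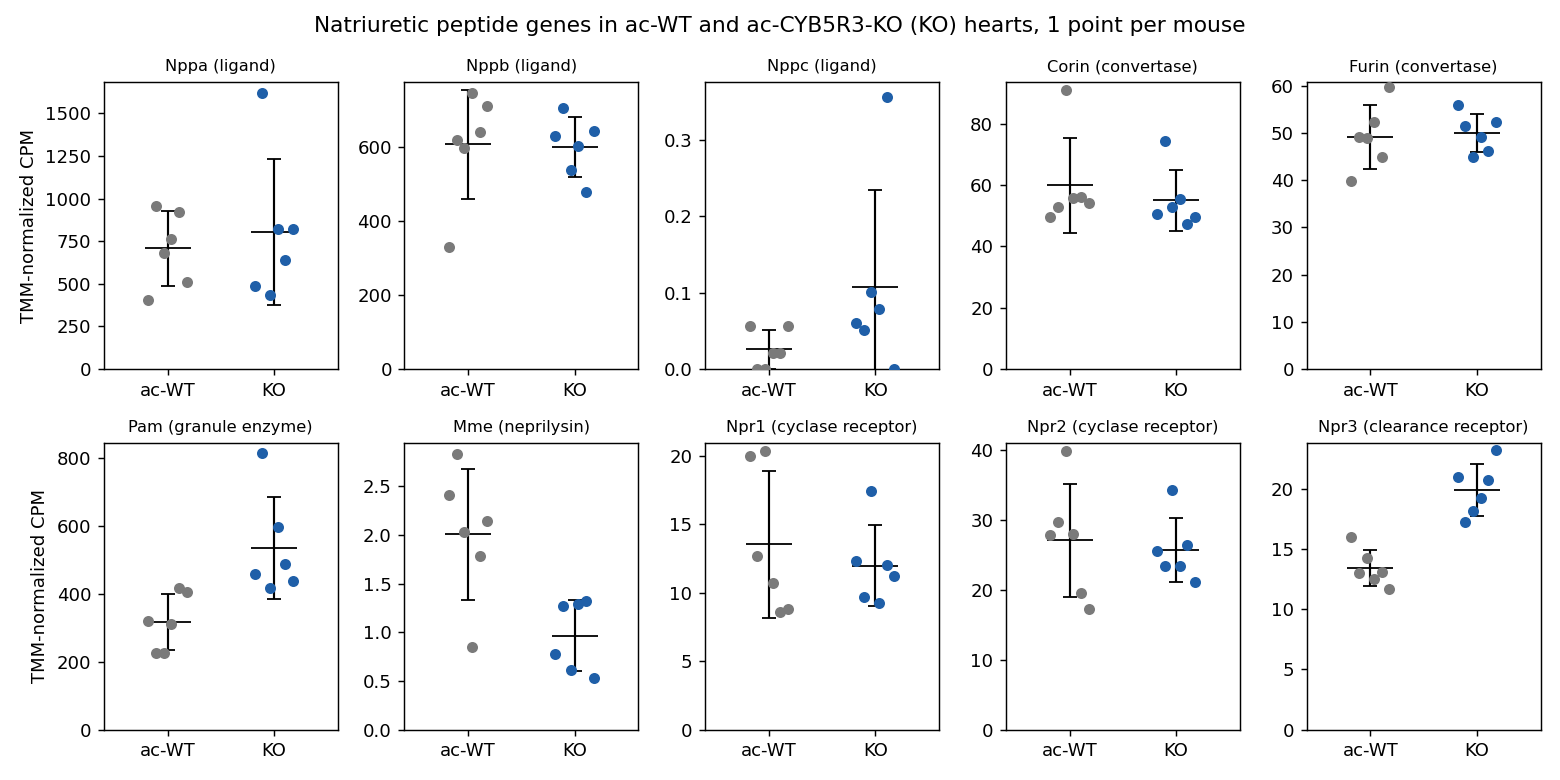
Normalized CPM (vertical axes, each from 0) of the 10 genes, with 1 point per mouse and lines for the mean and SD of 6 ac-WT and 6 ac-CYB5R3-KO (KO) mice. For Npr3 all KO points (17.2 to 23.2) lie above all ac-WT points (11.7 to 16.0), for Pam the groups nearly touch (416 and 417), and for Nppa 1 KO mouse at 1620 stands above the rest.

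Nppa and Nppb are neighbors on chromosome 4 in the same orientation. Their promoters are shown because GATA factors and a TATA box near the start site are the classical elements of cardiac peptide gene control. The sequences are from RefSeq (GRCm38.p6), + strand, and hold 250 bases before and 50 after the annotated start. The Nppb window lies at chr4:147985650-147985949 and the Nppa window at chr4:148000472-148000771, with 14522 bases between them. Capitals mark matches, on either strand, to the letters GATA (read TATC where the match is on the opposite strand), to the TATA box letters TATAAA and to the TEAD-binding M-CAT letters CATTCC (read GGAATG on the opposite strand).
Nppa: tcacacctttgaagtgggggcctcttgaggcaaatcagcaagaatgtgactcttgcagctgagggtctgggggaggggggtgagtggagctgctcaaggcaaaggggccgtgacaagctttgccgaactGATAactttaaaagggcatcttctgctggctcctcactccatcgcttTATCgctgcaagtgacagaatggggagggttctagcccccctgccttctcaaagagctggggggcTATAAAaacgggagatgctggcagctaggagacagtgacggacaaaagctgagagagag
Nppb: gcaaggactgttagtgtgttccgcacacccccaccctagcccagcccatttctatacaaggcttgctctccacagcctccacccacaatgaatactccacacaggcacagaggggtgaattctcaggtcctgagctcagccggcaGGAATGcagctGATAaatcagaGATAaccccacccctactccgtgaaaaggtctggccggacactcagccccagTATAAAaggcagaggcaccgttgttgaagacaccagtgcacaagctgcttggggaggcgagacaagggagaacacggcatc

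The Nppa window held GATA 121 bases before the start and again, on the opposite strand, 74 bases before it, and TATAAA 9 bases before it. The Nppb window held GATA 94 and 83 bases before the start, CATTCC on the opposite strand 105 bases before it, and TATAAA 31 bases before it. Such short words are common. Of all 32851 RefSeq promoter windows, 57.9% held GATA, 28.7% held it at least 2 times, 14.7% held CATTCC, 13.6% held TATAAA, and 6.08% held TATAAA together with at least 2 GATA. The windows of Npr1, Npr3 and Corin had none of the 3 words, and 14 windows were matched to the 10 genes in all. A match describes the letters and does not show binding.

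Nppa stood at 405, 722 and 956 normalized CPM (lowest, median and highest of 6) in ac-WT hearts and at 436, 729 and 1620 in ac-CYB5R3-KO hearts. The groups overlapped, and the medians were close. The log2 fold change was 0.18 ± 0.31 (SE), with a 95% interval of -0.48 to 0.85, that is 0.715-fold to 1.8-fold (edgeR adjusted p = 0.802). The interval thus spans changes of either sign. The highest value belonged to ac-CYB5R3-KO mouse 2, and without this mouse the log2 fold change was -0.14. An antisense gene, Gm13054, shares 61.5% of the Nppa exon bases. It held 682 reads over all libraries against 442714 for Nppa, and without a stated strand setting the reads of such a pair cannot be told apart.

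Nppb varied less. Its levels were 331, 630 and 747 normalized CPM (lowest, median and highest of 6) in ac-WT hearts and 478, 619 and 706 in ac-CYB5R3-KO hearts, and the groups overlapped. The lowest ac-WT value, that of mouse 1, was far from the next at 598, and without this mouse the log2 fold change was -0.143. The log2 fold change was -0.02 ± 0.18 (SE), with a 95% interval of -0.4 to 0.37 (0.757-fold to 1.29-fold), and the edgeR adjusted p was 0.975. The sign changed with the setting (0.235 when scaled by total counts, where the median of all genes moved from -0.007 to 0.256).

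Nppc, which encodes the C-type natriuretic peptide of endothelial cells and cartilage, was near the limit of detection, with 43 reads in all 12 libraries. The counts were 3, 0, 0, 1, 1 and 3 in ac-WT mice 1 to 6 and 3, 3, 6, 4, 19 and 0 in ac-CYB5R3-KO mice 1 to 6. Most libraries were therefore at or under a floor of 3 counts, a single mouse held 19 of the reads, and no fold change is given. The exact permutation test on log2(CPM + 1), two-sided, gave p = 0.0758 (n = 6 and 6). Some cartilage and matrix genes differed between the groups in the same libraries. Of a list of 10 cartilage and airway genes 5 were tested and 3 passed an unadjusted p under 0.01, all higher in ac-CYB5R3-KO hearts, with Comp at 2.17, Col11a1 at 2.68 and Col2a1 at 2.34 on the log2 scale (1.71, 2.16 and 2.01 without ac-WT mice 2 and 3). Col11a1 had an edgeR adjusted p of 0.144 with all mice and 0.00196 without these mice. Col9a3 was at -0.11, and the airway genes Scgb1a1, Sftpc, Muc5b and Foxj1 held 3, 7, 5 and 39 reads and were not tested. The summed level of the list was 4.44 to 41.1 CPM in ac-WT hearts (lowest 24.9 without ac-WT mice 2 and 3). It was 59.1 to 129 CPM in ac-CYB5R3-KO hearts, with no overlap. Comp and Col11a1 made up most of it, with means of 73.5 and 27.2 CPM in ac-CYB5R3-KO hearts. Col2a1 and Col9a3 were low there, at 0.602 and 0.387 CPM. The part of cartilage cells in the Nppc counts was not tested.

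Corin encodes the transmembrane protease of cardiomyocytes that cuts pro-ANP. Its level was 60 ± 15.5 normalized CPM in ac-WT and 55.0 ± 9.93 in ac-CYB5R3-KO hearts (SD, n = 6 each). The log2 fold change was -0.12 ± 0.16 (SE), with an edgeR adjusted p of 0.737. The highest Corin value of each group, 91.3 in ac-WT mouse 3 and 74.5 in ac-CYB5R3-KO mouse 2, was far from the others of its group. Without ac-WT mouse 3 the log2 fold change was 0.045, so the direction rested on that library.

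Furin encodes the ubiquitous proprotein convertase of the Golgi, which cuts many precursors, pro-BNP among them. Of the processing genes it was the steadiest, at 49.2 ± 6.75 normalized CPM in ac-WT and 50.1 ± 4.05 in ac-CYB5R3-KO hearts (SD, n = 6 each). Its log2 fold change of 0.02 ± 0.1 (SE) had a 95% interval of -0.2 to 0.25 (0.872-fold to 1.19-fold), and the edgeR adjusted p was 0.924. It was -0.029 without ac-WT mouse 1 and -0.009 without ac-CYB5R3-KO mouse 1.

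Pam encodes peptidylglycine alpha-amidating monooxygenase, a copper enzyme that is abundant in the membrane of atrial secretory granules. It was measured at 225, 314 and 416 normalized CPM (lowest, median and highest of 6) in ac-WT hearts and at 417, 474 and 813 with the deletion. The groups did not overlap, though by a margin that was small at the border, and the highest value again belonged to ac-CYB5R3-KO mouse 2. The difference was 0.76 ± 0.21 (SE) on the log2 scale, or 1.69-fold with a 95% interval of 1.24 to 2.3. Pam passed the unadjusted threshold of 0.01 in edgeR and not the adjusted one (adjusted p = 0.184). The exact permutation test, two-sided, gave p = 0.00216, the smallest it can give with 6 mice a group.

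The lowest Pam values were those of ac-WT mice 2 and 3 (225 and 226). Without both of them the difference was 0.576 ± 0.193 (SE) on the log2 scale, and with 1 surrogate variable in the fit it was 0.494, and in neither fit did Pam pass an unadjusted p under 0.01. Leaving out any 1 library kept it between 0.6 and 0.85 and under the unadjusted threshold of 0.01. Pam thus kept its direction in each of these fits, with a smaller size where the libraries that stood apart were removed.

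Mme encodes neprilysin, the membrane peptidase that degrades ANP and other small peptides. It was a low gene, with 834 reads over all libraries. Levels were 0.851, 2.08 and 2.83 normalized CPM (lowest, median and highest of 6) in ac-WT hearts and 0.529, 1.03 and 1.32 in ac-CYB5R3-KO hearts. The groups overlapped through ac-WT mouse 4 alone, the lowest of its group. The difference was -1.05 ± 0.3 (SE) on the log2 scale, or 0.484-fold with a 95% interval of 0.308 to 0.761. Mme passed the unadjusted threshold of 0.01 in edgeR and not the adjusted one (adjusted p = 0.188). The exact permutation test, two-sided, gave p = 0.0152 (n = 6 and 6).

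The unadjusted call of Mme depended on single libraries. It was lost without ac-WT mouse 1 (log2 fold change -0.985), ac-WT mouse 2 (-0.919), ac-CYB5R3-KO mouse 1 (-0.992) or ac-CYB5R3-KO mouse 3 (-0.942). The edgeR unadjusted p was 0.0101 to 0.0112 in these fits, just past the threshold of 0.01. The difference stayed between -1.21 and -0.92 with any 1 library left out. The call was also lost without ac-WT mice 2 and 3 together, where the log2 fold change was -0.879 ± 0.334 (SE).

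The cyclase receptors are given first. Npr1 encodes the guanylyl cyclase receptor that binds ANP and BNP. It was measured at 13.5 ± 5.36 normalized CPM in ac-WT and 12 ± 2.92 in ac-CYB5R3-KO hearts (SD, n = 6 each), with a log2 fold change of -0.17 ± 0.24 (SE) and an edgeR adjusted p of 0.75. Npr2 encodes the cyclase receptor for C-type natriuretic peptide. Its levels were 27.1 ± 8.05 and 25.8 ± 4.59 normalized CPM (SD, n = 6 each), with a log2 fold change of -0.07 ± 0.18 (SE) and an edgeR adjusted p of 0.879. ac-WT mouse 3 was the highest of all 12 hearts for both, at 20.3 for Npr1 and 39.9 for Npr2, and without ac-WT mice 2 and 3 the log2 fold changes were 0.004 and 0.164. Neither gene differed between the groups beyond the spread between mice. The 95% intervals were -0.68 to 0.34 for Npr1 and -0.47 to 0.33 for Npr2. Antisense genes overlap both, Gm16048 over 11.69% of the Npr1 exon bases with 17 reads and Gm12473 over 5.7% of those of Npr2 with 139 reads.

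Npr3 encodes the natriuretic peptide receptor that lacks a cyclase domain and takes peptides into the cell for degradation. It was measured at 11.7, 13.0 and 16.0 normalized CPM (lowest, median and highest of 6) in ac-WT hearts and at 17.2, 19.9 and 23.2 in hearts with the deletion. The groups did not overlap, and the spread within each group was small (13.4 ± 1.51 and 19.9 ± 2.19 normalized CPM, SD, n = 6 each). The difference was 0.57 ± 0.1 (SE) on the log2 scale, or 1.49-fold with a 95% interval of 1.28 to 1.73. Npr3 ranked 22 among the 17847 genes by edgeR, and its adjusted p of 0.0554 was just past the threshold. The exact permutation test, two-sided, gave p = 0.00216, the smallest it can give here.

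Of Npr3, Pam and Mme, Npr3 kept the unadjusted call in the most settings. It was higher in ac-CYB5R3-KO hearts in all 22 alternatives, by 0.52 to 0.84 on the log2 scale, with unadjusted p under 0.01 in each. The adjusted p ran from 0.000116 to 0.182 over these alternatives and was under 0.05 in 3 of them, with DESeq2 (0.000116), with no filter on low counts (0.048) and without ac-WT mouse 1 (0.0397). Without ac-WT mice 2 and 3 together the difference was 0.592 ± 0.115 (SE), with an edgeR adjusted p of 0.11.

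**Figure D2:**
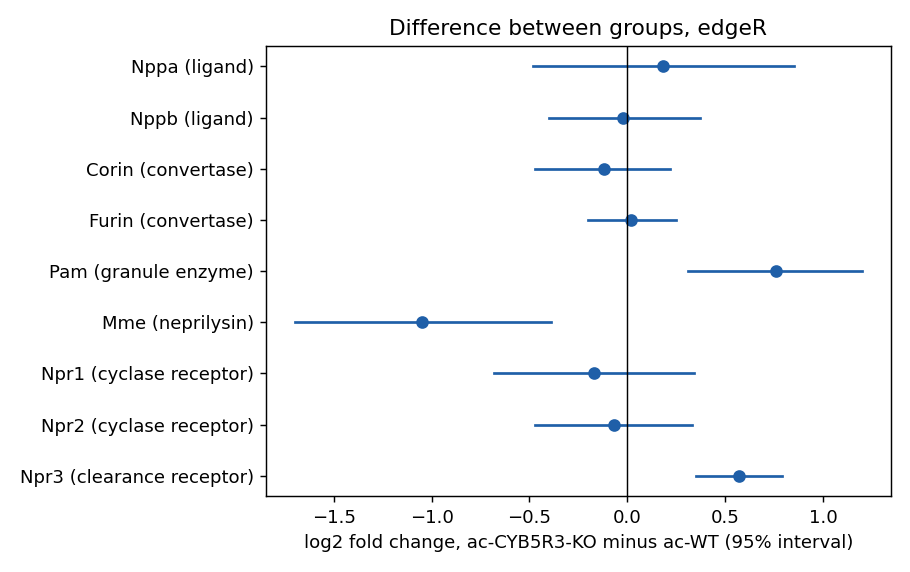
Log2 fold change (horizontal axis, ac-CYB5R3-KO minus ac-WT) of the 9 tested members, with points for the estimate of edgeR and lines for the 95% interval over 6 mice a group. The intervals of Pam (0.31 to 1.2), Npr3 (0.35 to 0.79) and Mme (-1.7 to -0.39) lie off 0, and those of the other 6 genes include it.

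To set the genes beside each other, counts were divided by exon length. In ac-WT hearts Nppa (817 ± 254 CPM per kb) and Nppb (778 ± 188 CPM per kb) led the order (SD, n = 6 each). Their ranges overlapped, so the per-length levels of these ligands were not separated. Pam followed at 39.6 ± 10.4 and Corin at 11.9 ± 3.09 CPM per kb, each apart from its neighbors in the order. Npr2 (5.8 ± 1.72) and Furin (5.36 ± 0.735) overlapped with each other, as did Npr1 (2.83 ± 1.12) and Npr3 (1.9 ± 0.214), all in CPM per kb. Mme (0.458 ± 0.153) and Nppc (0.0247 ± 0.0246) came last. The guanylyl cyclase receptor genes thus stood far under the ligand genes in these hearts, and Nppc RNA was nearly absent.

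Ratios of genes within a heart do not depend on library scaling, and they set the clearance receptor beside the ANP and BNP receptor. Npr3 over Npr1, per length, was 0.471, 0.741 and 1.03 (lowest, median and highest of 6) in ac-WT hearts and 0.706, 1.18 and 1.41 in ac-CYB5R3-KO hearts. These ranges overlapped, since Npr1 varied more between mice than Npr3. Npr2 over Npr1 was 1.43, 2.17 and 2.68 in ac-WT and 1.93, 2.19 and 2.61 in ac-CYB5R3-KO hearts, with nearly equal medians. Nppa over Nppb, per length, was 0.651, 1.07 and 1.39 in ac-WT and 0.696, 1.18 and 2.07 in ac-CYB5R3-KO hearts, again with overlap.

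**Figure D3:**
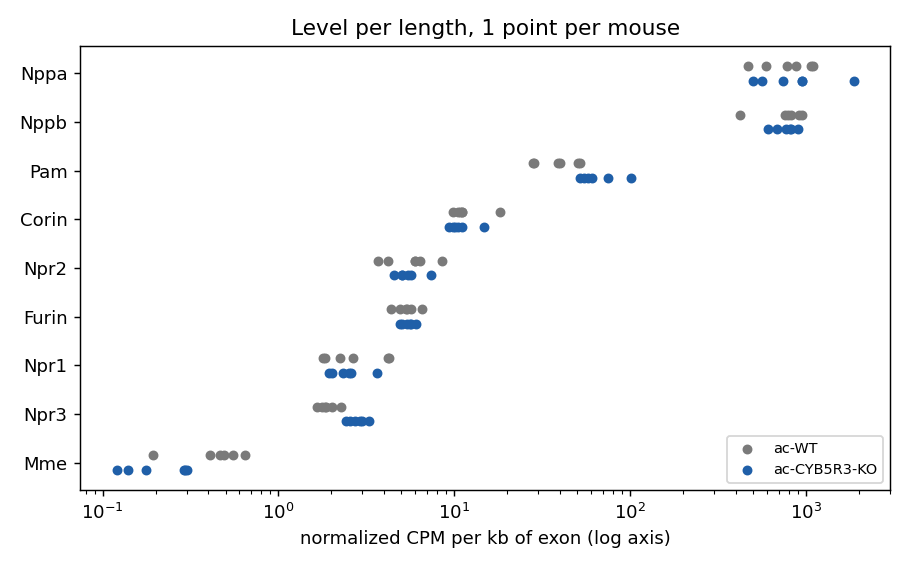
Normalized CPM per kb of exon (horizontal log axis) of the 9 tested members, with 1 point per mouse in ac-WT (gray) and ac-CYB5R3-KO (blue). Nppa and Nppb lie between 424 and 1870, apart from Pam (28.1 to 102), and Mme lies under 0.646.

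Members also varied together between mice of a group. After each group mean was subtracted, the correlation of log2(CPM + 1) over the 12 libraries, which share depth, scaling and tissue sampling, was 0.832 for Npr1 and Npr2, 0.8 for Nppb and Furin and 0.55 for Nppa and Nppb. It was -0.713 for Pam and Npr2 and -0.673 for Pam and Npr1. These values describe the 12 libraries and were not tested. The genes most like Nppa in this measure were Fig4 (0.936), Tmem218 (0.891) and Pkp2 (0.869). Those most like Nppb were Cdk5rap3 (0.916), Chchd6 (0.911) and Txndc9 (0.91), and those most like Npr3 were Gm13242 (0.895), Zfp600 (0.881) and 2210404J11Rik (0.834). None of these 9 genes passed an unadjusted p under 0.05 between the groups.

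Because ANP is stored in the atria, the tissue was checked against chamber markers. Some of the atrial genes were at or near 0 although the labels name whole hearts. Sln, the atrial calcium pump inhibitor sarcolipin, held 6 reads in all 12 libraries, and Bmp10, an atrial growth factor, held 10 reads. Myl7, the atrial regulatory light chain, was at 0.196 to 2.0 normalized CPM. Other atrial genes were detected in every heart, with Myl4 at 4.97 to 9.75 and Kcnj3 at 4.35 to 21.1 normalized CPM. The ventricular light chain genes were abundant, with Myl2 at 2270 to 13700 and Myl3 at 1390 to 6040 normalized CPM. The 11 atrial markers summed to 63.2 to 87.0 CPM in ac-WT and 69.7 to 87.9 CPM in ac-CYB5R3-KO hearts, and of the 8 tested only Stard10 passed an unadjusted p under 0.01 (-1.1 on the log2 scale, and -0.36 without ac-WT mice 2 and 3, where it did not pass). Dkk3 lay the other way, at 0.93 with no overlap between the groups (edgeR adjusted p = 0.341), and without those mice it was at 0.47 and passed an unadjusted p under 0.01. By Sln, Bmp10 and Myl7 the Nppa and Nppb levels above thus came from tissue with little atrial RNA. Myl4 and Kcnj3 do not show this, and the share of atrial tissue was not tested.

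**Figure D4:**
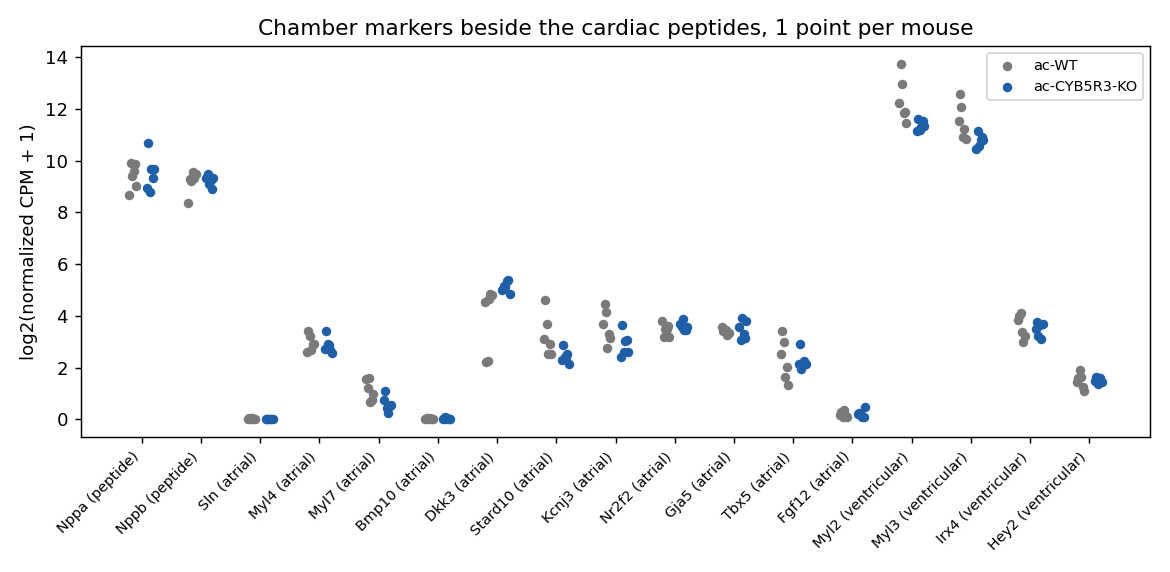
Log2(normalized CPM + 1) (vertical axis) of Nppa, Nppb and of atrial and ventricular marker genes, with 1 point per mouse in ac-WT (gray) and ac-CYB5R3-KO (blue). Sln and Bmp10 lie at 0 in both groups, while Myl2 lies above Nppa and Nppb in every mouse and is highest in ac-WT mice 2 and 3.

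Markers of other heart cells were set beside Npr3, Pam and Mme. Of 9 cardiomyocyte genes 1 passed an unadjusted p under 0.01, Tnni3, lower in ac-CYB5R3-KO hearts (-1.01 on the log2 scale, and -0.46 without ac-WT mice 2 and 3), and the list summed to 18300 to 36900 CPM in ac-WT and 14500 to 25600 CPM in ac-CYB5R3-KO hearts. Of 4 ventricular genes Myl2 (-1.22) and Myl3 (-0.87) were lower at that threshold. They were at -0.5 and -0.35 without ac-WT mice 2 and 3, where Myl3 did not pass. Npr3 and neprilysin are known in endothelial and stromal cells. Of 9 endothelial and endocardial genes 1 passed, Plvap (0.79, higher, and 0.59 without ac-WT mice 2 and 3), and the list summed to 394 to 779 CPM in ac-WT and 398 to 688 CPM in ac-CYB5R3-KO hearts. None of 7 fibroblast genes passed, with sums of 1430 to 7050 and 3680 to 5680 CPM. The lowest ac-WT sum was 4170 CPM without ac-WT mice 2 and 3. Of 4 smooth muscle genes Acta2 (-0.89) and Myh11 (-0.93) were lower, while Cnn1 (1.04, edgeR adjusted p = 0.272) and Tagln (0.18) lay the other way without passing, and the sums of 75.4 to 187 and 76.9 to 138 CPM overlapped. Acta2 and Myh11 were at -0.78 and -0.36 without ac-WT mice 2 and 3, where Myh11 did not pass. Red blood cell genes summed to 222 to 4490 and 1320 to 12200 CPM, leukocyte genes to 241 to 1100 and 383 to 703 CPM, skeletal muscle genes to 9.82 to 28.5 and 11.4 to 36.6 CPM and adipocyte genes to 0.0754 to 4.3 and 0.098 to 1.56 CPM. No gene of these 4 lists passed an unadjusted p under 0.01, and none of the adipocyte genes had enough reads to be tested. The part of any of these cells in the differences of Npr3, Pam and Mme was not tested.

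Lists of other genes of the pathway were compared in the same fit. Of 13 other processing and clearance genes 8 were tested, and Ide and Dpp4 passed an unadjusted p under 0.01, both lower in ac-CYB5R3-KO hearts. Ide, the insulin-degrading enzyme that also cuts ANP, was measured at 49.5, 55.2 and 73.9 normalized CPM (lowest, median and highest of 6) in ac-WT and at 33.7, 35.5 and 40.1 in ac-CYB5R3-KO hearts. The groups did not overlap, and Ide fell by 0.64 ± 0.11 (SE) on the log2 scale (edgeR adjusted p = 0.0476), the only gene of the lists compared here to pass an adjusted p under 0.05 with all 12 libraries. Without ac-WT mice 2 and 3 the difference was -0.53 ± 0.0819 (SE), with an edgeR adjusted p of 0.0631, and of all listed genes only Col11a1 then passed. Dpp4, a dipeptidyl peptidase that trims BNP, was lower by a log2 fold change of -0.66 (edgeR adjusted p = 0.186), and by -0.83 without these mice. The other peptidase genes tested in the list went in either direction. On the log2 scale Ece1 was at 0.0, Ece2 at 0.21, Pcsk5 at 0.29, Pcsk6 at -0.2 and Pcsk7 at -0.17. Each had an edgeR unadjusted p above 0.05. The neprilysin-like gene Mmel1 was too low to be tested with all 12 libraries. It was at 0.119 ± 0.0444 normalized CPM in ac-WT and 0.293 ± 0.116 with the deletion (SD, n = 6 each). Without ac-WT mice 2 and 3 it was tested and was higher in ac-CYB5R3-KO hearts, by 1.55 ± 0.432 (SE) on the log2 scale. It then passed an unadjusted p under 0.01 and not the adjusted threshold (edgeR adjusted p = 0.368). The 8 genes had a median of -0.09 on the log2 scale, against -0.007 for all tested genes.

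Secretory granule genes were mostly too low to test. Only 2 of 10 were tested, neither passed an unadjusted p under 0.01, and Cpe, carboxypeptidase E, came closest at a log2 fold change of 0.28 (edgeR adjusted p = 0.327). Of 16 genes of cyclic GMP action 14 were tested and 1 passed, Rgs2, a regulator of G protein signaling that is a target of cyclic GMP-dependent kinase, which was measured lower (-0.47 on the log2 scale, edgeR adjusted p = 0.211). It was at -0.28 without ac-WT mice 2 and 3, where it did not pass. The median of the list was 0.05. The kinase gene Prkg1 itself had a log2 fold change of 0.19 with an edgeR adjusted p of 0.576.

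All 18 genes known to regulate Nppa and Nppb were tested, and 1 was higher and 2 were lower at an unadjusted p under 0.01, with a list median of -0.1 on the log2 scale. Hopx, a homeodomain protein of cardiomyocytes, was measured at 56.4, 81.2 and 358 normalized CPM (lowest, median and highest of 6) in ac-WT and 25.8, 32.3 and 43.2 in ac-CYB5R3-KO hearts. The groups did not overlap, with a log2 fold change of -2.05 ± 0.42 (SE) and an edgeR adjusted p of 0.104. Tbx3, a repressor that marks the conduction system, had a log2 fold change of -0.92 ± 0.2 (SE) with an edgeR adjusted p of 0.141. Tead1, the factor that binds M-CAT elements, was higher by 0.46 ± 0.14 (SE) on the log2 scale (edgeR adjusted p = 0.193). Gata4, whose product binds GATA elements, was near equal in the groups, with a log2 fold change of 0.08 ± 0.14 (SE). The log2 fold changes without ac-WT mice 2 and 3 were -1.09 for Hopx, -0.63 for Tbx3 and 0.41 for Tead1, and Tead1 no longer passed an unadjusted p under 0.01.

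Other genes that respond to strain were compared because they usually move with Nppa and Nppb in hypertrophy. Of 9 such genes 8 were tested. Xirp2, an actin-binding protein of the intercalated disc, was higher in ac-CYB5R3-KO hearts by 1.25 ± 0.23 (SE) on the log2 scale (edgeR adjusted p = 0.0715), with 476 to 856 against 191 to 420 normalized CPM and no overlap, and by 1.06 without ac-WT mice 2 and 3. The median of the list was 0.31. The fetal genes Myh7 (0.2), Acta1 (0.12) and Ankrd1 (0.1) had log2 fold changes as small as that of Nppa, with unadjusted p above 0.05. For Myh7 this rested on ac-WT mice 2 and 3, without which it was at 0.7, against 0.32 for Nppa, still with an unadjusted p above 0.05. None of the 10 tested neighbors of Nppa and Nppb on chromosome 4 passed an unadjusted p under 0.01, and their median log2 fold change was 0.06.

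**Figure D5:**
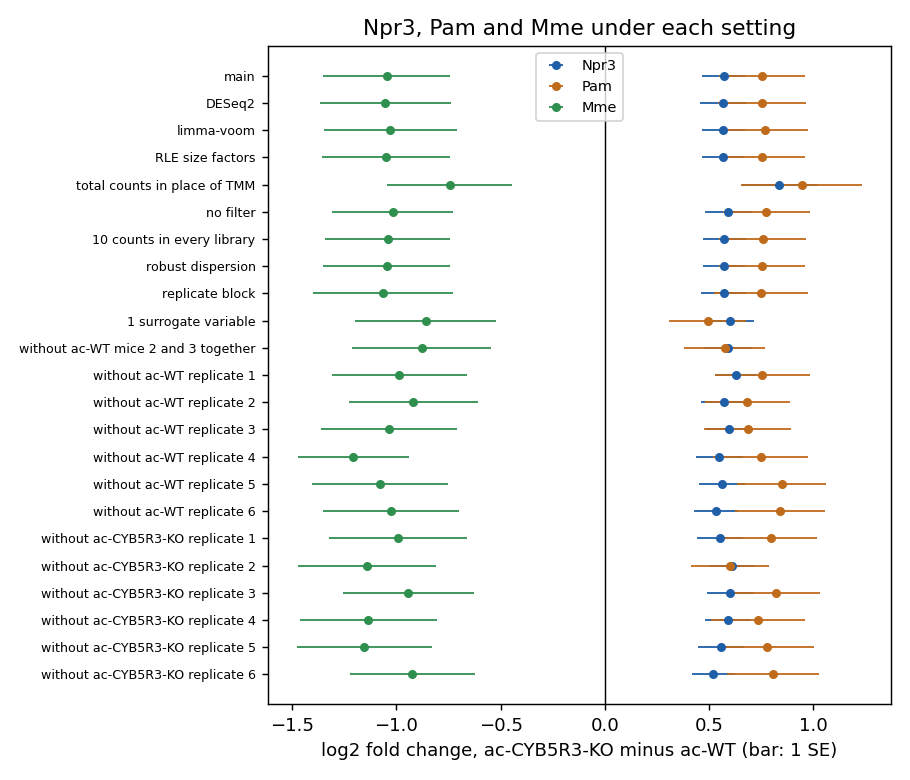
Log2 fold change (horizontal axis, ac-CYB5R3-KO minus ac-WT, bars of 1 SE) of Npr3, Pam and Mme as reported and under each of 22 alternatives. Npr3 stays between 0.52 and 0.84, Pam between 0.49 and 0.94 and Mme between -1.21 and -0.74, so none of them changes direction.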

How the data were processed

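RNA from pulverized frozen hearts was made into stranded total RNA libraries and sequenced as 75 bp unpaired reads. The authors deposited raw read counts per Ensembl gene, neither normalized nor filtered. The submitters' processing notes name STAR, featureCounts and GRCm39, whereas the study's methods name mm9, so only chromosomes are given for genes. Annotation release and strand setting of the counts are not given in the sources used here. Exon lengths and antisense overlaps were taken from a GENCODE annotation of mm9, which may differ from the annotation that was counted. Each column was assigned to a group by its sample's label.

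Counts were filtered with filterByExpr (minimum count 10), scaled by TMM and compared by quasi-likelihood F tests, two-sided, in edgeR (version 4.0.16, R 4.3.3), without covariates. The study's methods describe Cuffdiff on FPKM, but read counts need a count test. Adjustment was by Benjamini-Hochberg over 17847 genes. The unadjusted threshold of 0.01 follows the study. CPM are TMM-normalized. SE is the log2 fold change over the square root of F. Single genes were also compared by an exact permutation test on log2(CPM + 1). The fits were tested on simulated data. Alternatives used DESeq2 (version 1.42.0), limma-voom (version 3.58.1), a surrogate variable (sva version 3.50.0), other scalings and filters, a replicate block and omitted libraries. Symbols were found for 31027 identifiers. The biological coefficient of variation was 26.5%, so the spread between mice limits precision for all but low genes. Reads carry no molecular identifiers, so they are not independent molecules.

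The members and gene lists were chosen with earlier results of these data known. All 10 members are named, and genes of other lists where their adjusted p was under 0.05 or unadjusted p under 0.01. Others were named after their values were seen. They were Cpe, Prkg1, Gata4, Myh7, Acta1, Ankrd1, Sln, Bmp10, Myl7, Myl4, Kcnj3, Dkk3, Cnn1 and Tagln. Of the processing and clearance list they were Pcsk5, Pcsk6, Pcsk7, Ece1, Ece2 and Mmel1, and of the cartilage and airway list Col9a3 and the airway genes. For Nppa, Nppb and Npr3 the 3 most similar genes by Pearson r within groups are named. Nppc was too low for this.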

Additional observations from a re-analysis of the deposited data

Results flagged for a closer look

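The values below lie far from the other 5 of their group, by a gap to the next value above 0.625 of the whole range (Dixon's limit for 6 values). Of 20 groups compared in this way (10 genes in 2 groups) 4 were flagged, where chance flags about 1 in 20. Nppb was 331 normalized CPM in ac-WT mouse 1, the lowest of its group, with the next at 598. Nppc was 0.357 normalized CPM in ac-CYB5R3-KO mouse 5, from 19 reads, with the next at 0.101. Corin was 91.3 normalized CPM in ac-WT mouse 3 (next 56.1) and 74.5 in ac-CYB5R3-KO mouse 2 (next 55.4). ac-CYB5R3-KO mouse 2 also held the highest values of Nppa (1620) and Pam (813).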

How the results depend on the processing

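Npr3, Pam and Mme kept their direction in all 22 alternatives, with adjusted p of 0.000116 to 0.182, 0.0275 to 0.76 and 0.0405 to 0.773, and an unadjusted p under 0.01 in 22, 20 and 14 of them. The members passing an adjusted p under 0.05, 0 as reported, were 3 with DESeq2, 1 without a filter and 0 to 1 with 1 library left out. Those passing an unadjusted p under 0.01, 3 as reported, were 1 with a surrogate variable and also 1 once ac-WT mice 2 and 3 were left out. Over all genes, 18 passed the adjusted threshold as reported, and 451 did with DESeq2, 2 with limma-voom, 8 with RLE size factors, 8 with total counts, 35 without a filter, 4 with a surrogate variable, 7 without ac-WT mice 2 and 3, and 2 to 38 with 1 library left out (23 without ac-WT mouse 1, 20 without ac-WT mouse 6 and outside 1.5 times the reported count for each other mouse). The causes were not tested.

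With a replicate block in the fit, 2 genes passed in all, Nppb changed sign (0.013), and 2 members, Npr3 and Pam, kept an unadjusted p under 0.01 while Mme did not (log2 fold change -1.06). Equal numbers mark different animals, and the correlations of same-numbered pairs ran from -0.0806 to 0.353 (mean 0.144, other pairs -0.0282), with 3 of 6 ac-WT mice closest to their own number, so the mice were not treated as paired.

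Scaling by total counts set the median log2 fold change at 0.256 (reported -0.007) and turned the sign of Nppb (0.235), Corin (0.17), Npr1 (0.156) and Npr2 (0.266). Nppb also turned with limma-voom (0.014) and without a filter (0.007). A surrogate variable gave 0.004 for Npr1 and 0.182 for Npr2, and leaving out ac-WT mice 2 and 3 gave 0.004 and 0.164, and 0.044 for Corin. With 1 library left out the log2 fold changes ran from -0.14 to 0.31 for Nppa, -0.14 to 0.051 for Nppb, -0.23 to 0.045 for Corin, -0.029 to 0.09 for Furin and -0.17 to 0.08 for Npr2. The libraries that turned a sign were ac-CYB5R3-KO mouse 2 for Nppa, ac-WT mice 2, 4 and 6 and ac-CYB5R3-KO mice 3 and 5 for Nppb, ac-WT mouse 3 for Corin and Npr2, and mouse 1 of each group for Furin. Each of these 6 genes stayed above an adjusted p of 0.05 in all its alternatives. Nppc, tested only without a filter, had an adjusted p of 0.429 in edgeR. Depth limits Nppc, with 43 reads in all.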
